A study of Mus musculus with 12 samples.

Results

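Genes of peroxisome assembly and of peroxisomal enzymes were examined in the gastrocnemius, the large calf muscle, of mice. The set was a list of 34 named genes, each matched by symbol to probe sets that name 1 gene, with the brightest probe set over the 12 arrays standing for the gene. All 34 genes were found among the 18194 genes measured. The 4 groups of 3 arrays were old (24 month) knock-out muscle (KO_old), old wild-type muscle (WT_old), young (10 week) knock-out muscle (KO_young) and young wild-type muscle (WT_young). Knock-out denotes loss of PGC-1alpha, the coactivator encoded by Ppargc1a, in muscle alone, through a Cre recombinase driven by the myogenin promoter, so that other cells of the tissue keep the gene. The labels give a mixed C57Bl/6N/6J/129 background for all groups and name no sex, litter or batch. Nothing in them says that each array of a group is another animal, so every p-value rests on a spread between arrays that could be technical in part.

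Peroxisomes are single-membrane organelles that shorten very long and branched fatty acids, remove hydrogen peroxide and begin the synthesis of ether lipids. Their membrane proteins are inserted by a small group of peroxins, and their enzymes are imported folded, by receptors that recognise short targeting signals and dock at the membrane. In muscle they work beside mitochondria, to which they pass shortened acyl chains. PGC-1alpha is best known for driving mitochondrial genes together with nuclear receptors of the PPAR and ERR families, of which PPARs also control many peroxisomal enzymes.

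Values are log2 signals from RMA, a method that corrects and normalizes probe intensities, and each is read against the same probe set in other arrays only. Array medians lay between 6.19 and 6.25, and 6.22, the median over all probe sets, was taken as the level under which a gene is dim. Acox2 and Decr2 had means under it, at 5.23 and 5.86, and background compresses differences in such genes. The 9 myofibre markers gave a summed signal of log2 18.63 to 18.67 in all 12 arrays. KO_old 1 stood apart from its replicates on the first principal component (42.6, beside 19.3 and 15.7), with a summed adipocyte marker signal of 15.45 beside 14.70 and 13.44. WT_young 1 had the highest summed lymphocyte marker signal of all arrays, 9.54. Differences below are from limma fitted to all 12 arrays, with ± for the standard error, and adjusted p-values are by Benjamini and Hochberg over the 18194 genes. The groups were compared as KO minus WT in old muscle, in young muscle and averaged over both ages, as old minus young in each genotype, and as the difference of the genotype effects (interaction). The contrasts share arrays and are not independent of each other.

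The level of Ppargc1a itself was not reduced where the label reads knock-out. Its brightest probe set read 12.06, 11.84 and 12.33 in KO_old, 12.09, 11.76 and 11.51 in WT_old, 11.14, 11.47 and 12.10 in KO_young, and 10.77, 11.17 and 11.18 in WT_young muscle. The groups overlap at both ages. Averaged over both ages, KO minus WT lay between 0.36 and 0.48 on the 5 Ppargc1a probe sets, and none passed (adjusted p from 0.102 to 0.238). The deleted exons are not given, and a probe set outside them checks nothing about the genotype, so here a knock-out array is one that carries that label.

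The clearest difference among the peroxisome genes was that of Phyh, a gene of alpha-oxidation. This pathway removes 1 carbon from branched fatty acids such as phytanic acid before beta-oxidation can begin. Phyh, the phytanoyl-CoA hydroxylase that carries out its first step, fell in knock-out muscle at both ages. Hacl1, the lyase that acts next in the same pathway, was higher in knock-out muscle, and this passed for the average over both ages.

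Phyh read 10.59, 10.81 and 11.001 in KO_old muscle, against 11.89, 12.16 and 12.11 in WT_old muscle. In young muscle it read 10.93, 11.09 and 11.02 in KO_young, against 11.91, 12.12 and 12.11 in WT_young arrays. Every knock-out array lay below every wild-type array of either age, with a gap of 0.80 between the highest knock-out and the lowest wild-type array. The fall was 2.38-fold in old muscle (-1.25 ± 0.12, adjusted p = 0.000865, n = 3 per group) and 2.05-fold in young muscle (-1.03 ± 0.12, adjusted p = 0.00481, n = 3 per group). Averaged over both ages it was 2.21-fold (-1.14 ± 0.08, 95% interval -1.32 to -0.96, adjusted p = 6.9e-05, 6 arrays against 6). By p-value Phyh stood at rank 2 of 18194 genes in old muscle, rank 3 in young muscle and rank 2 in the average. The fall differed by -0.22 ± 0.16 between old and young muscle, which did not pass (interaction adjusted p = 0.88). The call in young muscle ended without WT_young 3 (-1.003, adjusted p = 0.0515) and the call in old muscle ended when the other 2 groups were left out of the fit (adjusted p = 0.0515), with differences close to those above.

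Hacl1 read 8.9999, 8.90 and 8.56 in KO_old muscle, against 8.37, 8.32 and 8.21 in WT_old muscle. It read 8.21, 8.48 and 8.17 in KO_young, against 8.15, 7.89 and 8.06 in WT_young muscle. The groups did not overlap at either age, although the gap in young muscle was small. Averaged over both ages Hacl1 rose 1.31-fold (0.39 ± 0.09, 95% interval 0.19 to 0.58, adjusted p = 0.0336, 6 arrays against 6). The differences within each age did not pass, at 0.52 ± 0.13 in old (adjusted p = 0.0682) and 0.25 ± 0.13 in young muscle (adjusted p = 0.479, n = 3 per group). The averaged call ended when any 1 of 9 arrays was left out (adjusted p from 0.0507 to 0.0935) and held without WT_young 1, KO_young 3 or KO_old 3, and the settings run ranged from 0.0104 to 0.0935.

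**Figure D1:**
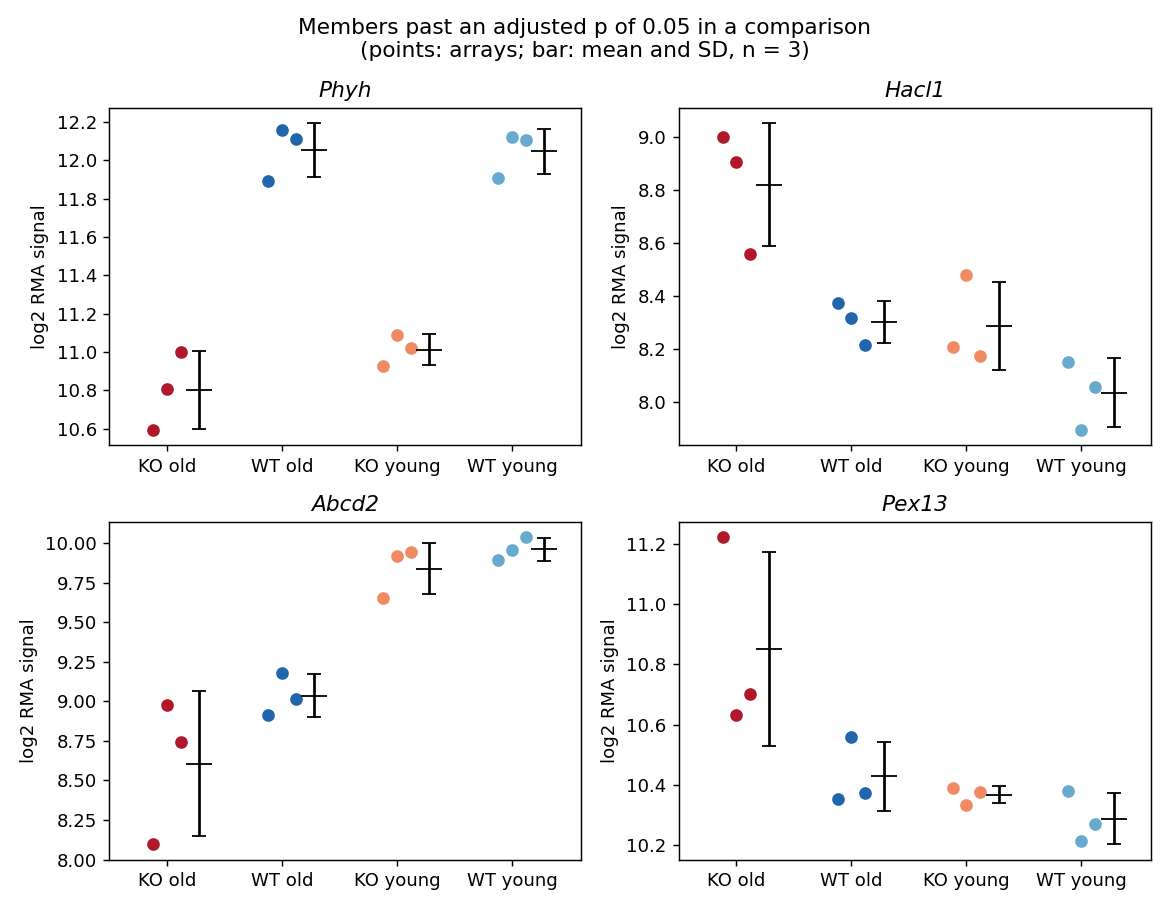
Log2 RMA signal (vertical axis) of the 4 genes that passed in at least 1 comparison, by group (horizontal axis); points are arrays and bars the mean and SD of 3 arrays. Phyh separates knock-out from wild-type arrays at both ages, Abcd2 separates old from young arrays in both genotypes, and Hacl1 and Pex13 are highest in old knock-out muscle, where KO_old 1 has the highest values of both.

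Other cell types were read beside these genes, since in whole muscle fewer cells of a type and less RNA per cell cannot be told apart. The 7 macrophage markers summed to log2 12.25 to 12.42 in KO_old and 11.06 to 12.13 in WT_old muscle, which did not overlap. They summed to 11.35 to 12.12 in KO_young and 11.26 to 11.75 in WT_young muscle, which overlapped. Of the 7, 2 rose and 0 fell for the average over both ages, Cd163 (0.71 ± 0.16, adjusted p = 0.0292) and Cd68 (1.28 ± 0.29, adjusted p = 0.0305). In that comparison 1.71% of all genes rose and 2.51% fell. The 6 measured of 7 lymphocyte markers, of which Cd3g, Cd79a and Cd2 stayed under 6.22 in every array, summed to 8.25 to 8.36 in KO_young and 8.45 to 9.54 in WT_young muscle. The 6 measured of 8 adipocyte markers overlapped between genotypes at both ages, with 13.44 to 15.45 in KO_old, 13.35 to 13.72 in WT_old, 13.40 to 13.82 in KO_young and 13.79 to 14.15 in WT_young muscle. Gene by gene, all 6 were higher in KO_old than in WT_old muscle (median difference 1.94) and all 6 lower in KO_young than in WT_young muscle (median difference -0.39). Of the 6, 0 passed limma at either age, where 1.32% of all genes did in old and 0.192% in young muscle. The unadjusted p was under 0.05 for 5 of 6 in old and 0 of 6 in young muscle, beside 19.3% and 11.3% of all genes. The old shift falls in the comparison where Hacl1, Pex13 and Ehhadh were higher without passing limma (adjusted p = 0.0682, 0.128 and 0.19). In it 19 of the 34 members were higher and 15 lower. The part of these other cell types in the differences was not tested. Without KO_old 1 and WT_young 1, the arrays highest on adipocyte and lymphocyte markers, the averaged differences were -1.13 for Phyh (adjusted p = 0.000103) and 0.37 for Hacl1 (adjusted p = 0.0422). This pair was chosen once the data had been seen, and without KO_old 1 alone the averaged call of Hacl1 ended. KO_old 2 stayed in, with an adipocyte sum of 14.70, above the highest wild-type array at 14.15. Leaving out KO_old 1 therefore does not remove the adipocyte shift.

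The sequences upstream of these genes are shown because Phyh and Hacl1 belong to 1 pathway and differ in direction. They are the 250 bases before the annotated start in RefSeq (GRCm38.p6), written 5′ to 3′ on the strand of the gene. Capitals mark AGGTCA, the core motif that PPAR and ERR receptors are known to bind, on either strand. Scp2, a sterol carrier and thiolase gene, is shown with them because its window was the only one among the members to hold this motif.
Phyh, chr2:4918746-4918995, plus strand: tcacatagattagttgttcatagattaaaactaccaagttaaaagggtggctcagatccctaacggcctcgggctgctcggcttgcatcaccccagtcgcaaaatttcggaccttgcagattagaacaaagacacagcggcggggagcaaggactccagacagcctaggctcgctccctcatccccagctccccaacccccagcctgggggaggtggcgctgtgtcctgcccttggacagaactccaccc
Hacl1, chr14:31640966-31641215, minus strand: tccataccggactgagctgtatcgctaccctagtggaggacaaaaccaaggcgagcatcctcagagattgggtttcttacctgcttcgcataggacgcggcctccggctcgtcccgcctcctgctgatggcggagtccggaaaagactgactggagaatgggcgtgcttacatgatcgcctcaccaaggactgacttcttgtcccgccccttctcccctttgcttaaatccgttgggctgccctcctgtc
Scp2, chr4:108118548-108118797, minus strand: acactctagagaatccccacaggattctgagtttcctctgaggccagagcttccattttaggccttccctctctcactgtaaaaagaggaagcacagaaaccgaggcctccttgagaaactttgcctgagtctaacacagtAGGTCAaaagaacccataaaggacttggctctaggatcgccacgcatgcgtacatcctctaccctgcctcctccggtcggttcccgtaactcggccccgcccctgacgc

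RefSeq start windows were matched for 27 of the 34 genes, 32 windows in all, and not for Pex2, Pex19, Hsd17b4, Abcd2, Abcd4, Amacr and Pxmp2. AGGTCA stood on either strand in 1 of the 32 windows, 3.12%, and in 14% of 32851 windows of all genes. The ERR element TCAAGGTCA, which contains that core motif, stood in 0 of the 32 and in 0.387% of all windows, and an exact direct repeat of the core motif with 1 base between (DR1, the PPAR arrangement) in 0 of the 32 and in 0.0335% of all. These matches describe letters in a window of 250 bases, and are not binding sites.

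Phyh and Hacl1 were the only members to pass in any genotype comparison. In old muscle 1 of 34 fell and 0 rose, where limma called 1.32% of all genes (0.473% higher and 0.852% lower). In that comparison 9 had an unadjusted p under 0.05, or 26.5% beside 19.3% of all genes. In young muscle 1 fell and 0 rose, beside 0.192% of all genes (0.0385% higher and 0.154% lower), and 2 had an unadjusted p under 0.05, or 5.88% beside 11.3%. For the average 1 rose and 1 fell, or 5.88% of members beside 4.22% of all genes (1.71% higher and 2.51% lower), and 6 had an unadjusted p under 0.05, or 17.6% beside 23.2%. The median difference of the members was 0.04 in old, -0.04 in young and -0.00 in the average, where all genes had -0.02, -0.01 and -0.01. Of the 34, 32 had a 95% interval of the averaged difference inside a 1.5-fold change in either direction. Of the averaged differences 17 were positive and 17 negative.

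**Figure D2:**
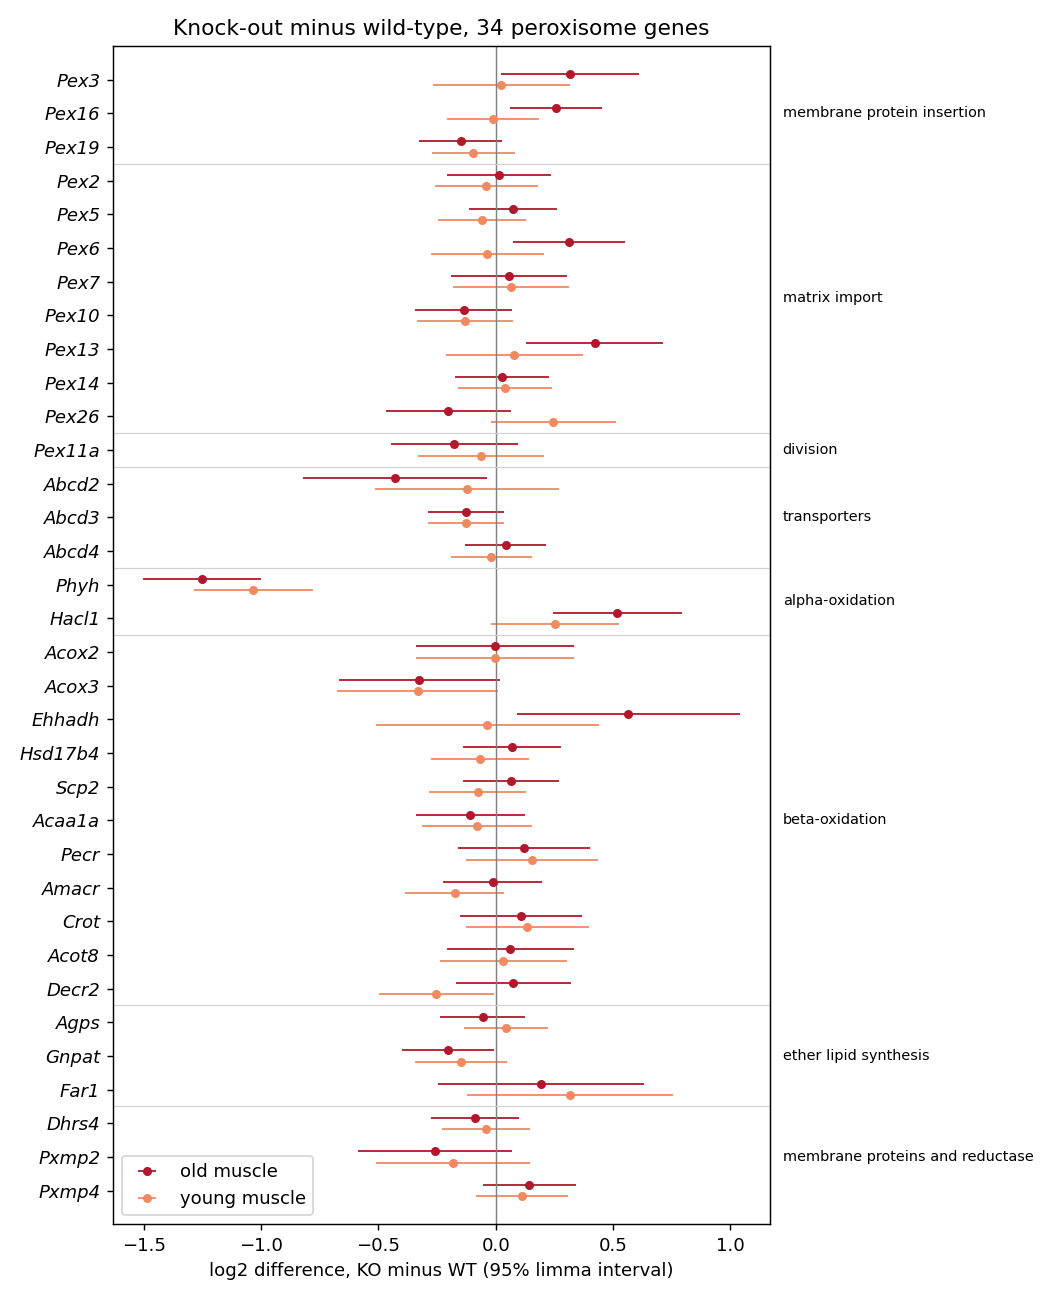
Log2 difference KO minus WT (horizontal axis) with its 95% limma interval for the 34 genes (vertical axis), ordered by role, in old and in young muscle. Phyh stands at -1.25 in old and -1.03 in young muscle, while the other genes lie between -0.43 and 0.57.

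Membrane protein insertion rests on Pex19, a soluble carrier of newly made membrane proteins, and on Pex3 and Pex16, its anchors in the membrane. Pex19 read 10.74, 10.80 and 10.94 in KO_old, 10.91, 11.05 and 10.97 in WT_old, 10.89, 10.97 and 10.92 in KO_young, and 10.97, 11.003 and 11.09 in WT_young muscle. The young groups lie side by side without overlap and the old groups overlap, with an averaged difference of -0.12 ± 0.06 that did not pass (adjusted p = 0.224). Pex16 read 9.71, 9.50 and 9.50 in KO_old, 9.29, 9.28 and 9.38 in WT_old, 9.33, 9.49 and 9.43 in KO_young, and 9.33, 9.44 and 9.52 in WT_young muscle. Its old groups were apart (0.26 ± 0.09) and its young groups overlapped (-0.01 ± 0.09), and neither difference passed (adjusted p = 0.157 in old and 0.97 in young muscle). Pex3 had group means of 9.23 ± 0.29 in KO_old and 8.92 ± 0.16 in WT_old muscle (SD, n = 3), and its difference of 0.32 ± 0.13 did not pass (adjusted p = 0.223).

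Matrix import uses the receptors Pex5 and Pex7, the docking proteins Pex13 and Pex14, the ubiquitin ligases Pex2 and Pex10 that release the receptor, and the ATPase Pex6 with its anchor Pex26. None of these 8 genes passed in a genotype comparison, with averaged differences from -0.13 for Pex10 to 0.25 for Pex13. Pex13 read 11.22, 10.63 and 10.70 in KO_old, 10.35, 10.56 and 10.37 in WT_old, 10.39, 10.33 and 10.38 in KO_young, and 10.38, 10.21 and 10.27 in WT_young muscle. It was apart between the old groups (0.42 ± 0.13, adjusted p = 0.128), with KO_old 1 highest. Pex10 read 8.42, 8.48 and 8.73 in KO_old, 8.66, 8.63 and 8.76 in WT_old, 8.56, 8.54 and 8.48 in KO_young, and 8.59, 8.62 and 8.75 in WT_young muscle. Only its young groups did not overlap, and the averaged difference did not pass (adjusted p = 0.251). Pex11a, which elongates peroxisomes before they divide, had an averaged difference of -0.12 ± 0.09 (adjusted p = 0.422).

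Fatty acyl-CoAs enter peroxisomes through the ABCD transporters, of which Abcd2 prefers very long and unsaturated chains and Abcd3 also carries branched chains. Abcd4, of the same family, moves cobalamin out of lysosomes. Abcd3 read 11.57, 11.61 and 11.69 in KO_old, 11.70, 11.77 and 11.78 in WT_old, 11.57, 11.69 and 11.72 in KO_young, and 11.79, 11.80 and 11.77 in WT_young muscle. Knock-out arrays lay below wild-type arrays at both ages, by a small margin, and the averaged difference was -0.13 ± 0.05 without passing (adjusted p = 0.181). Such a separation at both ages in 1 direction was seen for Phyh, Hacl1 and Abcd3, 8.82% of members beside 6.43% of all genes. Abcd2 was at -0.28 ± 0.13 (adjusted p = 0.219) and Abcd4 at 0.01 ± 0.06.

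The 11 genes of peroxisomal beta-oxidation and of its side reactions did not pass in any genotype comparison. They comprise the oxidases Acox2 and Acox3 for branched chains and bile acid precursors, the bifunctional enzymes Ehhadh and Hsd17b4, the thiolases Acaa1a and Scp2, the racemase Amacr, the reductases Decr2 and Pecr, the carnitine octanoyltransferase Crot and the thioesterase Acot8. Acox3 read 6.31, 5.81 and 6.27 in KO_old, 6.26, 6.61 and 6.49 in WT_old, 6.23, 6.17 and 6.29 in KO_young, and 6.27, 6.80 and 6.61 in WT_young muscle. The groups overlapped at both ages, near the level called dim, and the averaged difference was -0.33 ± 0.11 (adjusted p = 0.111). Acox3 passed in that comparison, lower, with array weights, without WT_young 1 and without WT_young 1 and KO_old 1 together. Ehhadh had 8.60, 7.70 and 7.52 in KO_old and 7.50, 7.25 and 7.38 in WT_old muscle, with KO_old 1 far above the others and a difference of 0.57 ± 0.22 that did not pass (adjusted p = 0.19). The other 9 had averaged differences between -0.09 and 0.14.

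Ether lipid synthesis begins in the peroxisome with the acyltransferase Gnpat and the synthase Agps, and Far1 supplies its fatty alcohols. Gnpat read 11.15, 11.21 and 11.29 in KO_old, 11.38, 11.53 and 11.36 in WT_old, 11.33, 11.38 and 11.23 in KO_young, and 11.34, 11.58 and 11.46 in WT_young muscle. The old groups did not overlap, and the averaged difference of -0.18 ± 0.06 did not pass (adjusted p = 0.13). Agps was at -0.01 ± 0.06 and Far1 at 0.26 ± 0.14. Of the remaining genes, Pxmp2, a pore of the peroxisomal membrane, read 11.34, 10.88 and 11.49 in KO_old, 11.25, 11.52 and 11.71 in WT_old, 11.39, 11.47 and 11.38 in KO_young, and 11.49, 11.62 and 11.68 in WT_young muscle. Its old groups overlapped and its young groups did not (averaged difference -0.22 ± 0.11, adjusted p = 0.239). Pxmp4, another protein of that membrane, read 8.97, 9.01 and 8.82 in KO_old, 8.89, 8.71 and 8.76 in WT_old, 8.91, 8.88 and 8.88 in KO_young, and 8.64, 8.86 and 8.85 in WT_young muscle. Its young groups were just apart, at an averaged difference of 0.13 ± 0.06 (adjusted p = 0.253), and Dhrs4, a carbonyl reductase, was at -0.06 ± 0.06.

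Groups that did not overlap were about as common among the members as among all genes. In old muscle 8 of 34 members were apart, 23.5% beside 23.8% of all genes, and in young muscle 9 were, 26.5% beside 20.8%.

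**Figure D3:**
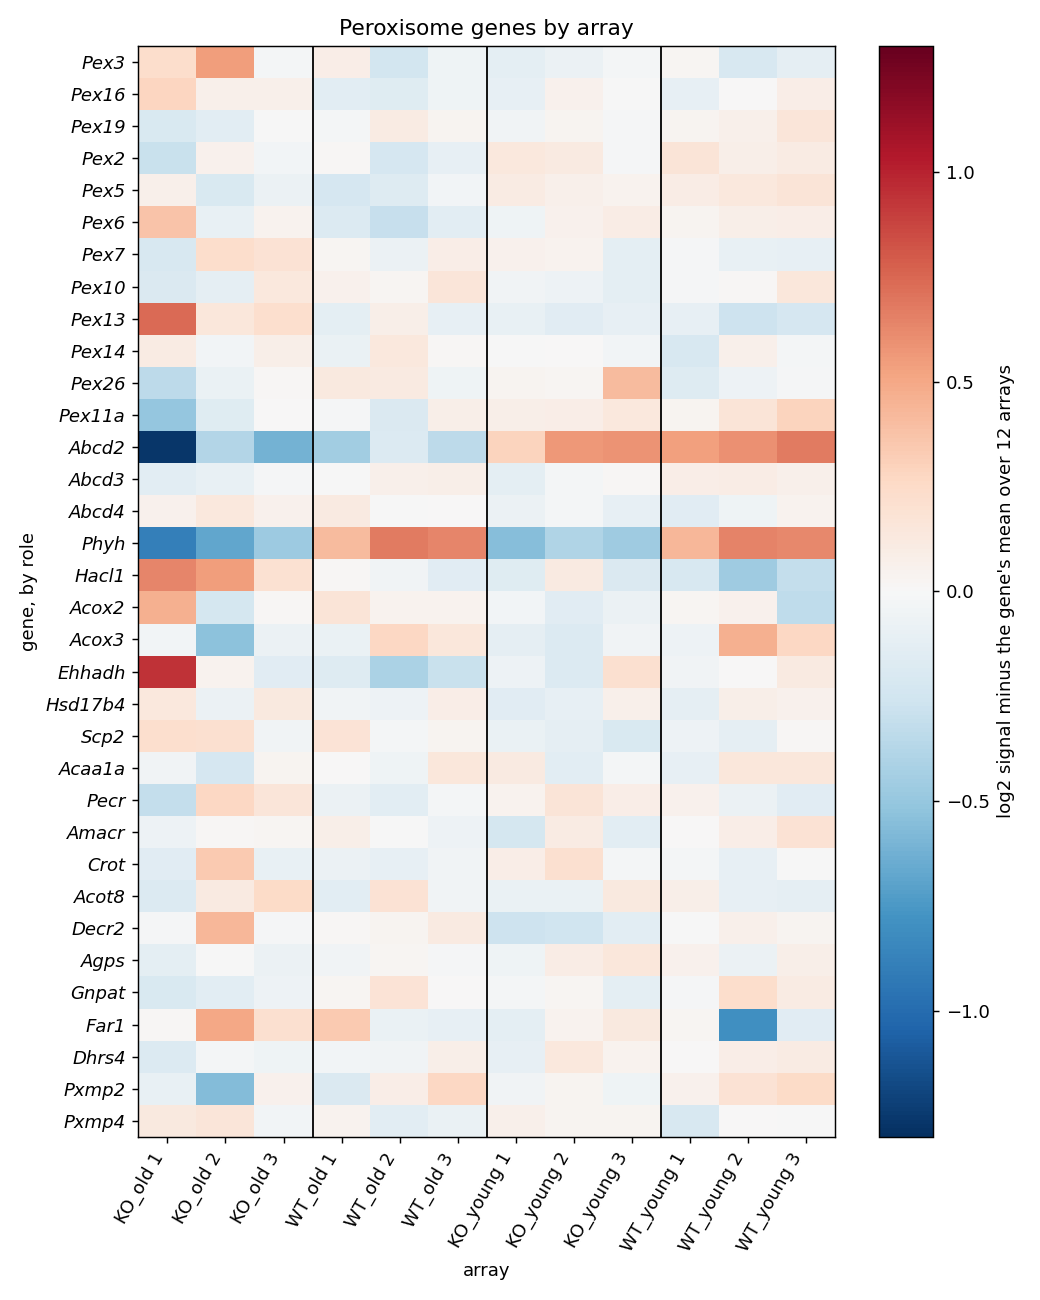
Log2 signal minus the mean of the gene over the 12 arrays (colour) for the 34 genes (rows, by role) in each array (columns, by group). Phyh and Abcd2 hold most of the strong colour; Ehhadh and Pex13 are highest in KO_old 1, and Far1 is lowest in WT_young 2.

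With age, Abcd2 fell in both genotypes. It read 8.10, 8.98 and 8.74 in KO_old and 9.65, 9.92 and 9.94 in KO_young muscle, a 2.35-fold fall (-1.23 ± 0.18, adjusted p = 0.002, n = 3 per group). It read 8.91, 9.18 and 9.01 in WT_old and 9.89, 9.95 and 10.04 in WT_young muscle, a 1.90-fold fall (-0.92 ± 0.18, adjusted p = 0.0178, n = 3 per group). Old arrays lay below young arrays in both genotypes, with KO_old 1 lowest, and the falls differed by -0.31 ± 0.26, which did not pass (adjusted p = 0.891). In KO muscle the fall of Abcd2 was called in every setting run (adjusted p from 0.00108 to 0.0303), and without KO_old 1 it was -0.98 (adjusted p = 0.0015). In WT muscle the call ended without WT_young 2 (0.056), WT_young 3 (0.0791), WT_old 1 (0.0633) or WT_old 3 (0.0612). The other 3 Abcd2 probe sets gave smaller falls, at -0.49, -0.41 and -0.45 in KO muscle, against -0.27, -0.26 and -0.23 in WT muscle. Of these, 1 dim probe set passed in KO muscle (-0.45). The mean of the 4 gave -0.64 in KO muscle (adjusted p = 0.013) and -0.42 in WT muscle (adjusted p = 0.139).

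Pex13 and Hacl1 rose with age in knock-out muscle. Hacl1, whose array values stand above, was 1.45-fold higher in KO_old than in KO_young muscle (0.53 ± 0.13, adjusted p = 0.0204, n = 3 per group). In WT muscle the difference was 0.27 ± 0.13 with groups apart, and did not pass (adjusted p = 0.317). The call in KO muscle ended without KO_young 1 (0.065), KO_young 3 (0.0845), KO_old 1 (0.0664) or KO_old 2 (0.057), and with KO arrays alone in the fit (0.0859). Pex13 was 1.40-fold higher in KO_old than in KO_young muscle (0.48 ± 0.13, adjusted p = 0.0402, n = 3 per group), and in WT muscle the difference was 0.14 ± 0.13 (adjusted p = 0.682). Without KO_old 1 the Pex13 difference was 0.30, under the main value by more than 1.5 times, and did not pass (adjusted p = 0.071). The Pex13 call also ended without KO_young 1, 2 or 3, WT_young 2 or 3, or WT_old 1 or 3 (adjusted p from 0.0517 to 0.117), with KO arrays alone in the fit (0.13) and with the mean of probe sets (0.33, adjusted p = 0.193). Its other, dim probe set gave 0.18.

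Phyh did not pass with age, at -0.21 ± 0.12 in KO muscle (adjusted p = 0.289) and 0.01 ± 0.12 in WT muscle (adjusted p = 0.983). Among import genes in WT muscle, Pex5 was at -0.28 ± 0.09 (adjusted p = 0.114), Pex6 at -0.27 ± 0.11 (adjusted p = 0.229) and Pex2 at -0.22 ± 0.10 (adjusted p = 0.3), each with old arrays below young ones and none past the test. Another Pex6 probe set passed in both genotypes, lower with age (-0.37 in KO and -0.48 in WT muscle). The remaining Pex6 probe sets gave -0.37, 0.04 and, where dim, 0.38 in WT muscle, and -0.10, -0.06 and -0.03 in KO muscle. The chosen one was at 0.08 in KO muscle, so the direction of Pex6 with age is also uncertain. For Pex19, which was at -0.10 ± 0.08 in KO and -0.05 ± 0.08 in WT muscle, other probe sets gave 0.38 and -0.46 in KO and 0.33 and -0.43 in WT muscle, so its direction with age is uncertain. In KO muscle Decr2 was at 0.35 ± 0.11 (adjusted p = 0.0682), although dim, and Scp2 at 0.26 ± 0.09 (adjusted p = 0.104). In KO muscle 2 of 34 members rose and 1 fell, or 8.82% beside 10.3% of all genes (4.85% higher and 5.41% lower). In WT muscle 0 rose and 1 fell, or 2.94% beside 3.62% (1.65% higher and 1.97% lower). An unadjusted p under 0.05 was found for 8 members in KO muscle, 23.5% beside 24.9% of all genes, and for 4 in WT muscle, 11.8% beside 16.6%. Old and young arrays did not overlap for 9 members in KO muscle, 26.5% beside 28.7%, and for 6 in WT muscle, 17.6% beside 26.2%. Medians were 0.03 in KO and -0.03 in WT muscle, beside -0.00 and 0.00 for all genes. Without KO_old 3 the count in KO muscle was 7, with Pex3, Pex11a, Scp2 and Decr2 added to Abcd2, Hacl1 and Pex13. Without KO_old 1 it was 1, Abcd2. Over all genes 1868 were called for age in KO muscle with all arrays, and 833 to 1998 without single arrays.

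**Figure D4:**
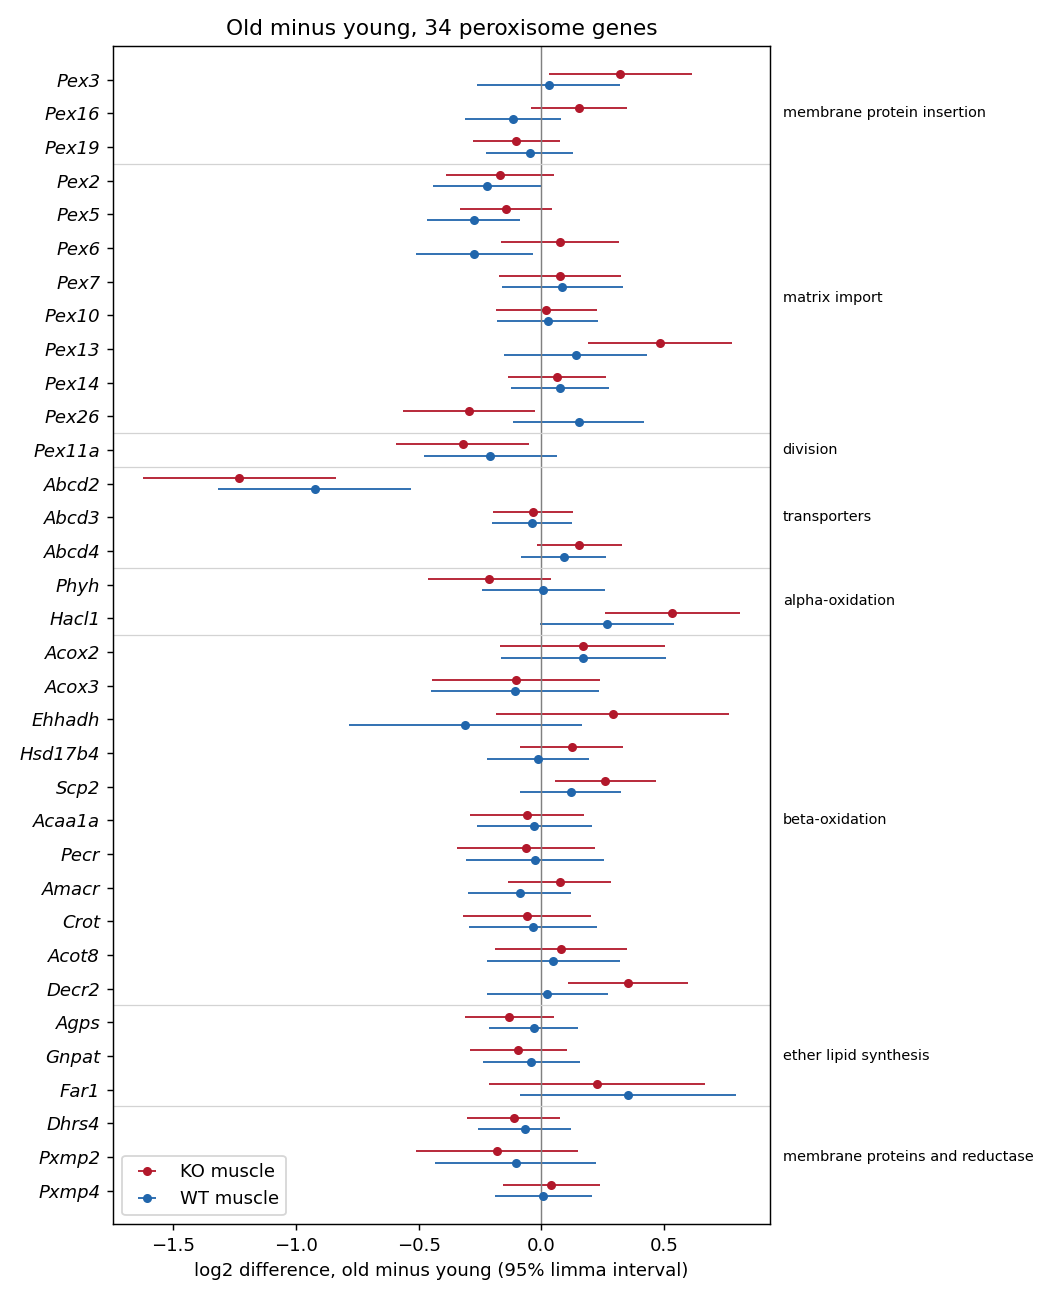
Log2 difference old minus young (horizontal axis) with its 95% limma interval for the 34 genes (vertical axis), ordered by role, in KO and in WT muscle. Abcd2 stands at -1.23 in KO and -0.92 in WT muscle, and the next largest differences are those of Hacl1 (0.53) and Pex13 (0.48) in KO muscle.

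Signs of RNA quality and of other cells also moved with age. The 18S ribosomal control signal was 11.70 to 12.84 in KO_old, 11.74 to 12.34 in WT_old, 13.23 to 14.17 in KO_young and 13.78 to 13.86 in WT_young arrays. The 5' minus 3' signal of Actb was -0.109 to 0.051, -0.140 to -0.112, -0.257 to -0.157 and -0.334 to -0.231 in the same groups. It was thus just apart between genotypes in old muscle and overlapped in young muscle. The 5' minus 3' signal of Gapdh overlapped between genotypes at both ages. The part of RNA quality in the genotype differences was not tested. The 5 fibroblast markers summed to 13.29 to 14.36 in KO_old, 13.83 to 14.16 in WT_old, 14.58 to 15.40 in KO_young and 14.44 to 15.01 in WT_young muscle. The 5 endothelial markers gave 10.25 to 10.45, 10.41 to 10.56, 10.48 to 10.93 and 10.66 to 11.02 in that order, and the 3 measured of 4 erythroid markers 8.11 to 9.05, 7.84 to 8.52, 7.32 to 7.34 and 7.16 to 7.48, with Hba-a1 under 6.22 in every array. The adipocyte sums given above were lower in WT_old than in WT_young muscle without overlap, with all 6 markers lower (median difference -1.01), and overlapped in KO muscle, with all 6 higher (median difference 1.022). The macrophage sums were higher in KO_old than in KO_young muscle without overlap, with all 7 markers higher and Cd68 past the test (2.87 ± 0.41, adjusted p = 0.00164), and overlapped in WT muscle. Of the 7, 1 passed in KO muscle, where 4.85% of all genes rose with age. The part of these signs in the age differences was not tested.

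No interaction of genotype and age passed limma, in 0 of 34 members or in 0 of 18194 genes (0%). Pex26 (-0.45 ± 0.17) and Pex6 (0.35 ± 0.16) had an unadjusted p under 0.05 (adjusted p = 0.871 for both), or 5.88% of members beside 5.45% of all genes. Pex26 had group means of 7.31 ± 0.18 in KO_old, 7.51 ± 0.10 in WT_old, 7.60 ± 0.22 in KO_young and 7.36 ± 0.08 in WT_young muscle (SD, n = 3 each).

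Other peroxisomal genes were listed from general knowledge. Of 17 measured further acyl-CoA enzymes and transporters, 3 fell, 0 rose and 14 did not pass for KO minus WT averaged over both ages, where 2.51% of all genes fell and 1.71% rose. They were Crat, which makes short-chain acyl-carnitines in peroxisomes and mitochondria (-0.35 ± 0.07, adjusted p = 0.0164), and the coenzyme A diphosphatases Nudt19 (-0.36 ± 0.08, adjusted p = 0.0257) and Nudt7 (-0.44 ± 0.11, adjusted p = 0.0476). Crat read 11.47, 11.38 and 11.50 in KO_old, 11.70, 11.93 and 11.95 in WT_old, 11.69, 11.83 and 11.76 in KO_young, and 11.89, 12.14 and 12.10 in WT_young muscle, apart at both ages. Slc25a17, a carrier of cofactors in the peroxisomal membrane, was at 0.14 ± 0.06 (adjusted p = 0.191). The median of this list was 0.00. With age in KO muscle 2 of the 17 rose and 0 fell, where 4.85% of all genes rose and 5.41% fell. They were Slc25a17 (0.31 ± 0.09, adjusted p = 0.0429) and the dim Eci3 (0.58 ± 0.14, adjusted p = 0.0248). In WT muscle these were at 0.26 ± 0.09 for Slc25a17 (adjusted p = 0.144) and 0.10 ± 0.14 for Eci3 (adjusted p = 0.81).

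Of 9 measured further genes of assembly and division, 1 fell, Dnm1l, the dynamin-like protein that divides both peroxisomes and mitochondria (-0.26 ± 0.06, adjusted p = 0.0407), with a median of -0.03, beside 2.51% of all genes that fell. Tmem135 (0.22 ± 0.08, adjusted p = 0.142), the fission adaptor Fis1 (0.11 ± 0.05, adjusted p = 0.228) and Pex11g (0.10 ± 0.06, adjusted p = 0.382) did not pass. Of 15 measured oxidases, redox enzymes and proteases, 0 passed limma in that comparison and 4 had an unadjusted p under 0.05, where 23.2% of all genes had one, with a median of -0.09. The glutathione transferase Gstk1 (-0.36 ± 0.10, adjusted p = 0.0639), Hao2 (-0.20 ± 0.07, adjusted p = 0.104, dim), the epoxide hydrolase Ephx2 (-0.51 ± 0.17, adjusted p = 0.115) and Uox (-0.23 ± 0.10, adjusted p = 0.177, dim) were those 4. With age, Lonp2, a peroxisomal protease, rose in KO muscle (0.51 ± 0.12, adjusted p = 0.0226), and its difference in WT muscle was close in size without passing (0.48 ± 0.12, adjusted p = 0.0521). Idh1, which makes NADPH, fell in WT muscle (-0.43 ± 0.10, adjusted p = 0.0449) and was at -0.16 ± 0.10 in KO muscle (adjusted p = 0.379). Neither gene passed the interaction (adjusted p = 0.99 for Lonp2 and 0.871 for Idh1).

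Beta-oxidation in mitochondria gave another picture. Of 16 measured genes, 9 fell, 0 rose and 7 did not pass for the average over both ages, where 4.22% of all genes were called (1.71% higher and 2.51% lower). All 16 differences were negative, with a median of -0.28, where all genes had a median of -0.01. Within an age, 2 of the 16 fell in old and 0 in young muscle, where 0.852% and 0.154% of all genes fell. Acaa2, a thiolase (-0.73 ± 0.12, adjusted p = 0.00683), Etfdh (-0.33 ± 0.06, adjusted p = 0.0112) and Etfa (-0.31 ± 0.06, adjusted p = 0.0124), which pass electrons to the respiratory chain, and the short-chain dehydrogenase gene Acads (-0.38 ± 0.07, adjusted p = 0.0122) were among the 9 that fell for the average. The difference between the lists was not tested. Of 9 regulators 3 fell, the nuclear receptor genes Esrra (-0.83 ± 0.10, adjusted p = 0.00139), Ppara (-0.45 ± 0.11, adjusted p = 0.0376) and Esrrb (-0.45 ± 0.11, adjusted p = 0.047), and 0 rose, with a median of 0.06. These are for the average over both ages, where 2.51% of all genes fell and 1.71% rose. Within an age, 1 of the 9 fell in old and 0 in young muscle, beside 0.852% and 0.154% of all genes. Esrra read 9.54, 9.84 and 10.08 in KO_old, 10.68, 10.75 and 10.74 in WT_old, 10.24, 10.23 and 10.26 in KO_young, and 10.70, 11.15 and 11.14 in WT_young muscle, with knock-out arrays below wild-type arrays as for Phyh.

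**Figure D5:**
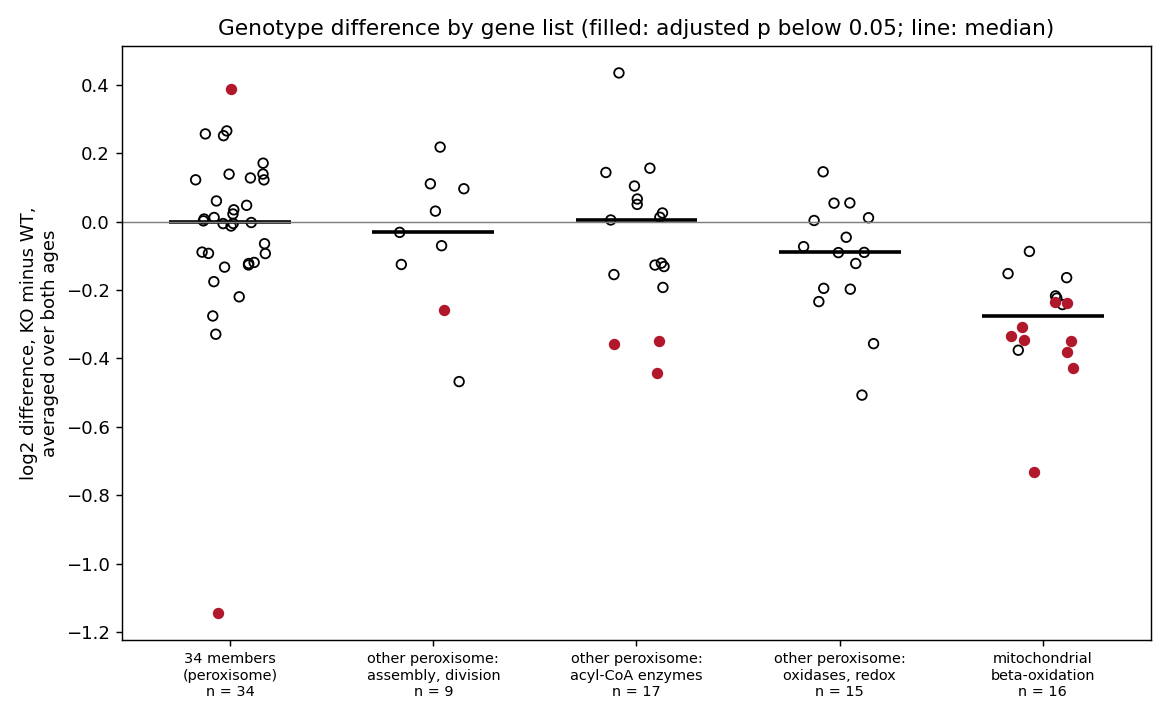
Log2 difference KO minus WT averaged over both ages (vertical axis) for each gene of 5 lists (horizontal axis); filled points passed an adjusted p of 0.05 and lines mark medians. The 34 peroxisome genes have a median of -0.00 with Phyh far below at -1.14, and the 16 mitochondrial beta-oxidation genes have a median of -0.28.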

How the data were processed

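Total RNA from 12 muscle samples was extracted with Trizol and labelled as biotinylated cRNA for Affymetrix arrays, per the labels' protocols. The deposited values are log2 signals made by the authors with RMA in affy, per the submitters' processing notes (versions not given in the sources used here), which subtracts background and forces the arrays to a common distribution. Of 45101 probe sets, 34958 named 1 gene, 932 several and 9211 none, by the platform annotation, and the last 2 kinds were left out. Each of 18194 genes was represented by its brightest probe set over the 12 arrays. Of the 34 members, 13 had 1 probe set and 21 had several. Limma 3.58.1 (R 4.3.3) fitted 4 group means with 8 residual and 4.15 prior degrees of freedom, tested 6 contrasts, and adjusted p over all genes with a threshold of 0.05. The procedure was tested on simulated data. The members and lists were chosen with earlier results of these data known. Array values are given for members past the threshold in a comparison, and for others in order of p for KO minus WT averaged over both ages up to 12 genes. Array values of Ehhadh, Crat and Esrra were added after their values were seen. Up to 4 genes per further list are named by the same p, and genes named for age were chosen after their values were seen. Some genes of the further lists and 6 of the cell type markers were not analysed here. Summed marker signals are log2 of the sum of linear signals. The precision is limited by 3 arrays per group. Arrays within a group correlated at 0.988 to 0.997, and no 2 arrays were identical.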

Additional observations from a re-analysis of the deposited data

Results flagged for a closer look

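Among members, 3 genes moved in opposite directions when each array was set against the mean of the group compared, without the difference passing. The share of all genes that did so was not computed, so the count of 3 has no background beside it. Single arrays still overlapped for all 3 genes. For Amacr KO_old 1 read 10.10 and KO_young 2 read 10.28. For Pex16 WT_old 3 read 9.38 and WT_young 1 read 9.33, and for Pex26 KO_old 3 read 7.45 and WT_old 3 read 7.39. For Pex26 all KO_old arrays lay below the WT_old mean and all KO_young arrays above the WT_young mean (interaction -0.45, adjusted p = 0.871), and by age KO and WT arrays also moved apart (-0.45). For Pex16 (0.27, adjusted p = 0.871) and Amacr (0.16, adjusted p = 0.892) all KO_old arrays lay above the KO_young mean and all WT_old arrays below the WT_young mean.

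Some probe sets of members that were not chosen also passed when every probe set was tested with limma. Of all 34958 probe sets, 1153 passed for KO minus WT averaged over both ages, 1156 for age in WT muscle and 3379 for age in KO muscle. The share among unchosen probe sets of members was not computed. For KO minus WT averaged over both ages, another probe set gave 0.39 for Pex3 and 0.35 for Far1. In old muscle alone these gave 0.56 and 0.53 and did not pass limma (adjusted p = 0.061 and 0.0528). Other unchosen Far1 probe sets gave averaged differences of 0.29, 0.20 and -0.08 and did not pass. For Scp2 another probe set, with a mean of 6.82 over the arrays, gave an averaged -0.37, where the chosen one, with a mean of 12.39, gave -0.01. The remaining Scp2 probe sets, with means of 12.20 and 8.87, gave 0.13 and -0.05 and did not pass. For old minus young in KO muscle, other probe sets gave 0.62 for Pex3, 0.49 for Scp2, 0.70 for Far1, -0.49 for Agps, -0.45 for Abcd2 and -0.37 for Pex6. Pex6 gave -0.48 on the same probe set in WT muscle, where its other probe sets took both signs. Pex19 was split: 1 probe set gave 0.38 in KO muscle, another gave -0.46 in KO and -0.43 in WT muscle, and the chosen one gave -0.10 in KO and -0.05 in WT muscle. The direction of Pex19 with age is therefore uncertain, and the cause was not tested.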

How the results depend on the processing

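No paired analysis was possible because the labels carry no replicate numbers that are shared between groups. The count of members past the threshold was 1 for KO minus WT in young muscle, and leaving out single arrays gave 0 to 1. Over all genes 35 were called with all arrays and 1 to 173 without single arrays. In old muscle the count of members was 1, with 2 for brighter genes alone, 0 with only the groups compared, and 1 to 2 without single arrays. Over all genes these settings called 388 of 11354, 0 of 18194, and 28 to 644, beside 241 in the main fit. For the average over both ages the count of members was 2, with 1 after quantile normalization again, 3 with array weights, 4 with both WT_young 1 and KO_old 1 left out, a choice made once the data had been seen (Phyh, Acox3, Pecr and Hacl1), and 1 to 3 without single arrays. Over all genes 705 were called after quantile normalization again, 1936 with array weights and 309 to 1007 without single arrays, beside 768 in the main fit. For age in WT muscle the count of members was 1, with 0 for the mean of probe sets, 3 with array weights (Pex5, Pex6 and Abcd2), and 0 to 1 without single arrays. Over all genes these settings called 539, 2451 and 208 to 1093, beside 659 in the main fit. For age in KO muscle the count of members was 3, with 1 with only the groups compared, 1 with both WT_young 1 and KO_old 1 left out, and 1 to 7 without single arrays. Over all genes 617 were called with only the groups compared and 833 to 1998 without single arrays, beside 1868 in the main fit. For the interaction the count of members was 0 in every setting run. The fall of Phyh averaged over both ages passed in every setting run (adjusted p from 5.74e-06 to 0.000593), and none of the 8 called differences of Phyh, Hacl1, Abcd2 and Pex13 recomputed under each setting changed sign. Phyh and Hacl1 have 1 probe set each, so the settings that average or test all probe sets could not change the size of their differences. Other named differences were recomputed on every probe set alone, where several took both signs. These include Pex19 with age, and with age in WT muscle Pex6 (-0.27 chosen, 0.38 other) and Pex2 (-0.22 chosen, 0.02 other). Far1 did so averaged over both ages (0.26 chosen, -0.08 other) and Pex16 in old muscle (0.26 chosen, -0.06 other). The Pex6 interaction did so too (0.35 chosen, -0.41 other). Over all genes the counts were 35 in young muscle (1 to 1019 over the settings), 241 in old muscle (0 to 644), 768 for the average (309 to 1936), 659 for age in WT (208 to 2451), 1868 for age in KO (617 to 3379) and 0 for the interaction (0 to 37).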
